A study of Taeniopygia guttata with 2 samples.

Results

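Voltage-gated sodium, calcium and HCN channel genes were examined in nuclei of Area X, the striatal song nucleus of the zebra finch basal ganglia. The genes were taken by symbol: every gene column that begins SCN with a number and A or B, CACNA, CACNB, CACNG, or HCN with a number. This gave 31 genes of the 17430 in the table, and 25 of the 31 had at least 200 UMIs (unique transcript counts) over both libraries. A total of 66.3% of all genes passed the same minimum, and the 31 genes held 1.35% of all UMIs. Genes of related channels without a column under their symbol, among them SCN1A, CACNA1A and CACNG8, were not analysed here. They may still be in the table, which has 4643 columns named by gene ID. SCN8A, the sodium pore of the axon initial segment, appears under a gene ID (LOC115491370) rather than its symbol and so was not chosen.

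Voltage-gated sodium channels carry the upstroke of the action potential and have a single large pore subunit with small beta subunits. Calcium channels open on depolarisation and couple firing to transmitter release, gene expression and burst firing. Their high-voltage pores (L, N and R type) assemble with beta and alpha2delta subunits, whereas the T-type pores open near rest. HCN channels open on hyperpolarisation and carry a mixed cation current that sets resting potential and pacemaking. In the striatum, medium spiny neurons (MSNs) rest at hyperpolarised potentials and are silent until driven, while cholinergic interneurons fire without input and rely on HCN channels and calcium entry for their rhythm.

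Both groups were adult male birds given an AAV into Area X that carried a Cre-switch hairpin construct. The shScr group received CS-shScr, with a scrambled hairpin, and the shFoxP2 group received CS-shFoxP2, with a hairpin against the transcription factor gene FoxP2. Tissue punches of 2 birds were pooled into 1 library per group, labelled as 160 to 185 days post hatch. Birds were killed before lights-on, and no sort for infected nuclei is described. Infected and uninfected nuclei therefore cannot be told apart, and neither can the birds within a library.

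The shScr library held 14289 nuclei and 39179294 UMIs (median 2300 per nucleus), and the library labelled shFoxP2 held 12956 nuclei and 42662731 UMIs (median 2871). The libraries share 47 cell barcodes. FOXP2, the targeted gene, stood at 4.75 UMIs per 10000 in the MSNs of shScr and at 5.85 in those of the library labelled shFoxP2, a log2 ratio of 0.30 (95% interval 0.27 to 0.34). This direction goes against the label. The difference was uneven: MSN cluster 2 held 8.04 and then 10.3, and MSN cluster 4 held 12.8 and then 12.7. The study showed the knockdown as FoxP2 protein, in cultured cells and in infected cells of Area X. The counts here are RNA over exons and introns of all nuclei, so they do not measure that protein. All levels below are UMIs of a gene per 10000 UMIs of the group of nuclei, with shScr first and the library labelled shFoxP2 second where a pair is given. With 1 library per condition no test of the conditions was possible, and the intervals (exact Poisson for levels, exact binomial for log2 ratios) cover counting error only. These sums do not tell whether fewer nuclei of a group carry a gene or each carries less of it. A level over several clusters, such as all MSNs, also depends on the shares of those clusters.

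Nuclei lay in 23 joint clusters. Their cell type names are those given by the study, set here beside marker genes. Markers of oligodendrocytes, their precursors, microglia and endothelial cells were highest in the clusters so named, except the precursor marker CSPG4 (highest in endothelial cells), and CHAT, the acetylcholine-synthesising enzyme, stood at 13.5 and 13.5 in interneuron cluster 23 against at most 0.700 and 0.288 elsewhere. SST, NPY and NOS1 were highest in interneuron cluster 16. MSN markers were not restricted to the MSNs: 6 of them summed to between 90.5 and 115 in the 5 MSN clusters of shScr, and to 81.1 in the red blood cells and 81.9 in astrocyte cluster 7. FOXP1 alone of the 6 was highest in an MSN cluster in both libraries. At 45.6 in MSN cluster 5 of shScr, it was a large part of the sum. In both libraries GAD2 was highest in interneuron cluster 14, PPP1R1B in red blood cells and MEIS2 in the pallidal-like cluster. TAC1 and FOXP2 were highest in an MSN cluster in 1 library. The hemoglobin gene HBAA stood at 522 and 451 in the red blood cells, which had a median of 659 and 630 UMIs per nucleus. A channel gene was thus seen in red blood cells at a median of 61.2% and 80.1% of its MSN level over 24 members. Over all genes that median was 121% and 124%. Red blood cells had the lowest median UMIs per nucleus in each library, so their level is no common floor for other clusters. CACNA2D1 stood at 11.3 in red blood cells of shScr and at 1.52 in interneuron cluster 14, which had a median of 3706 UMIs. Which part of any level is RNA from other cells was not tested.

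Over the 25 members with 200 or more UMIs, the channel genes differed in where they were highest: some in MSNs, others in interneuron or glutamatergic clusters, and a few, such as CACNG4, outside the neurons. Levels of different genes are not compared, since the counts were not corrected for gene length. The same cluster was highest in both libraries for 17 of the 25 members, against 46.8% of all genes. The 17 include HCN3, which rests on 5 and 4 UMIs in red blood cells. All genes past the same minimum were taken, without matching them to the members by UMIs. A gene was called peaked where its highest cluster was the same in both libraries and at least 2 times the next in each. By that rule 1 of the 25 members was peaked, with 5.91% of all genes peaked. These clusters were drawn from the same counts, so the levels are a description without a test.

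**Figure D1:**
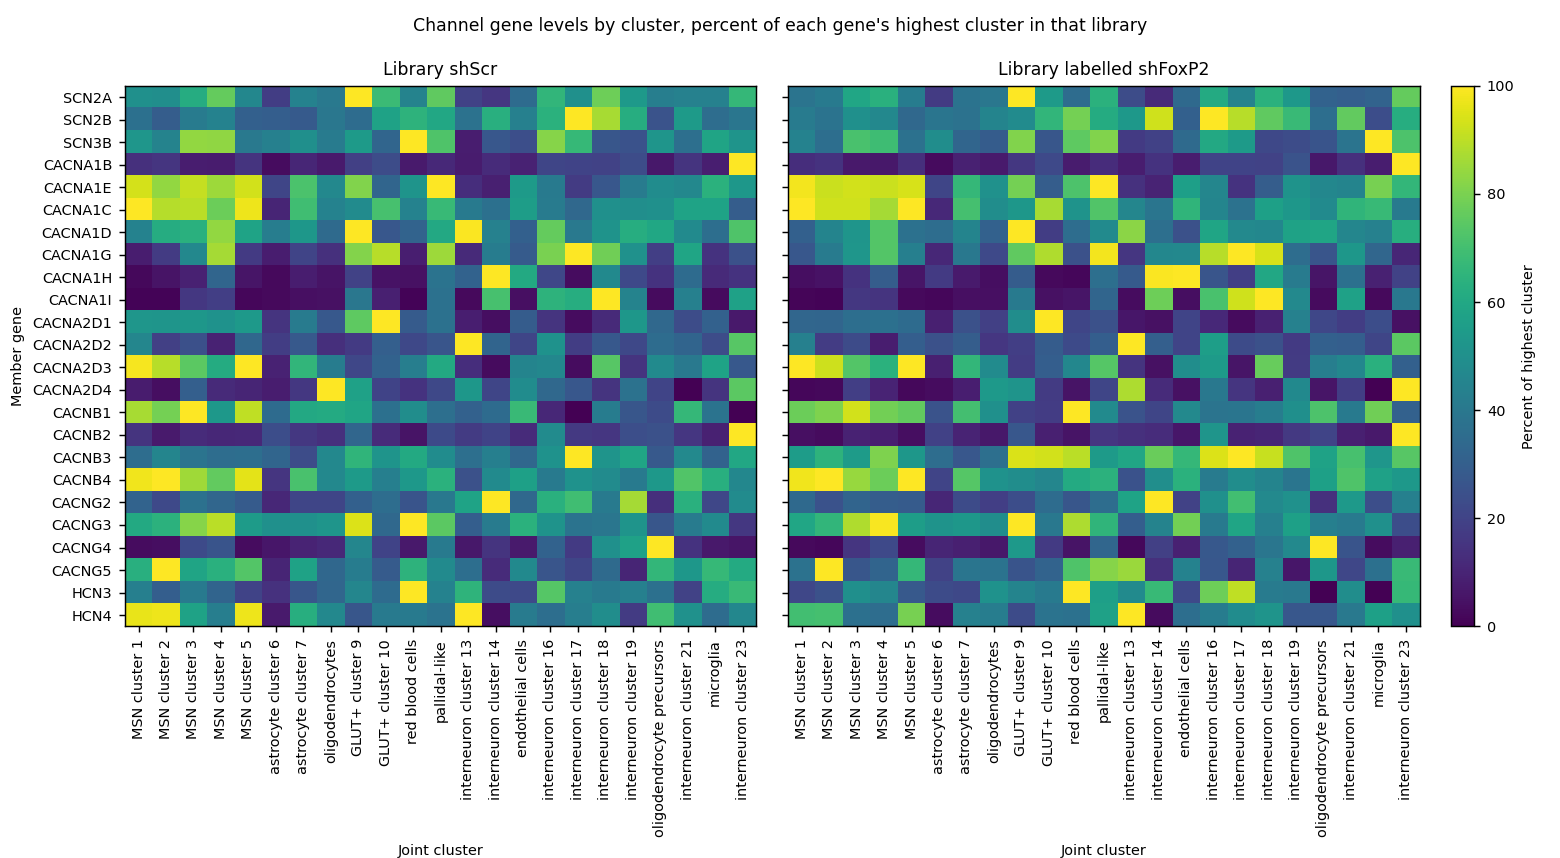
Level of each of 24 members (rows) in each of the 23 joint clusters (columns), as a percent of that gene's highest cluster in the same library, with 1 panel per library. CACNA1B and CACNB2 are bright in interneuron cluster 23, CACNG4 in the oligodendrocyte precursors, and CACNA1C, CACNA2D3 and CACNB4 in the MSN clusters.

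SCN2A, a sodium pore gene, was highest in GLUT+ cluster 9 at 4.81 and 5.45. The 5 MSN clusters lay between 2.22 and 3.68 in shScr and between 2.10 and 3.46 in the library labelled shFoxP2, with the direct-like cluster 4 highest in each. It was lowest in interneuron cluster 14, where parvalbumin is highest, at 0.762 and 0.644, below its level in red blood cells (2.16 and 1.93). SCN8A had its highest level in an MSN cluster in each library, at 1.57 in MSN cluster 2 and 1.52 in MSN cluster 5. The beta subunit genes were sparse. SCN2B was highest in interneuron cluster 17 of shScr (1.32) and interneuron cluster 16 of the library labelled shFoxP2 (1.13). SCN3B had its highest level in red blood cells of shScr (0.700) and microglia of the library labelled shFoxP2 (0.730), from 23 and 11 UMIs. The next clusters were MSN cluster 3 (0.587) and GLUT+ cluster 9 (0.592), and interneuron cluster 13 was lowest in each library (0.0549 and 0.125).

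CACNA1B, the N-type pore that triggers transmitter release at many terminals, was the single peaked member. It stood at 40.4 (37.6 to 43.3) and 41.5 (39.1 to 43.9) in interneuron cluster 23, the 32 and 44 nuclei with CHAT. The next clusters were GLUT+ cluster 10 in shScr at 9.44 and interneuron cluster 19 in the library labelled shFoxP2 at 10.6, which put cluster 23 at 4.28 and 3.90 times the next. In MSNs the level ranged from 3.10 to 6.17 and from 2.63 to 6.07, with the smaller clusters 3 and 4 lowest, and astrocyte cluster 6 was lowest of all at 1.37 and 1.15. The nuclei of cluster 23 had the most UMIs of any cluster, with medians of 6169.5 and 6407.

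CACNA1E, the R-type pore, had a different spread. Its highest level was in the pallidal-like cluster at 7.22 and 6.6, close to the MSN clusters, which lay between 6.05 and 6.76 and between 6.07 and 6.47. Interneuron cluster 14 held 0.641 and 0.654, interneuron cluster 13 held 0.944 and 0.942, and interneuron cluster 17 held 1.25 and 0.966, all below the red blood cells (3.74 and 4.76). As a share of the UMIs of both pores, CACNA1B rose from 45.6% and 45.7% in MSN cluster 1, and 33.5% and 30.2% in MSN cluster 4, to 88.7% and 90.3% in interneuron cluster 14, 86.6% and 89.7% in interneuron cluster 17 and 91.4% and 90.5% in interneuron cluster 23. GLUT+ cluster 10 was also high at 80.0% and 82.4%, whereas GLUT+ cluster 9 stood at 56.4% in each library. The share depends on the lengths of both genes and is read across clusters alone.

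The L-type pore CACNA1C, which links calcium entry to gene expression, was the best-counted member, with 184157 and 186084 UMIs. It was highest in MSN clusters, at 60.2 in MSN cluster 1 of shScr and 53.9 in MSN cluster 5 of the library labelled shFoxP2. Astrocyte cluster 6 held 6.26 and 6.32, while astrocyte cluster 7, which carries MSN markers, held 41.8 and 38.0. The other L-type pore, CACNA1D, opens at more negative potentials and supports pacemaking. It was highest in GLUT+ cluster 9 (3.92 and 4.08), with interneuron cluster 13 next (3.90 and 3.36), and lowest in GLUT+ cluster 10 (1.07 and 0.748). The pair of GLUT+ clusters, both with SLC17A6, thus lay at opposite ends for CACNA1D.

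**Figure D2:**
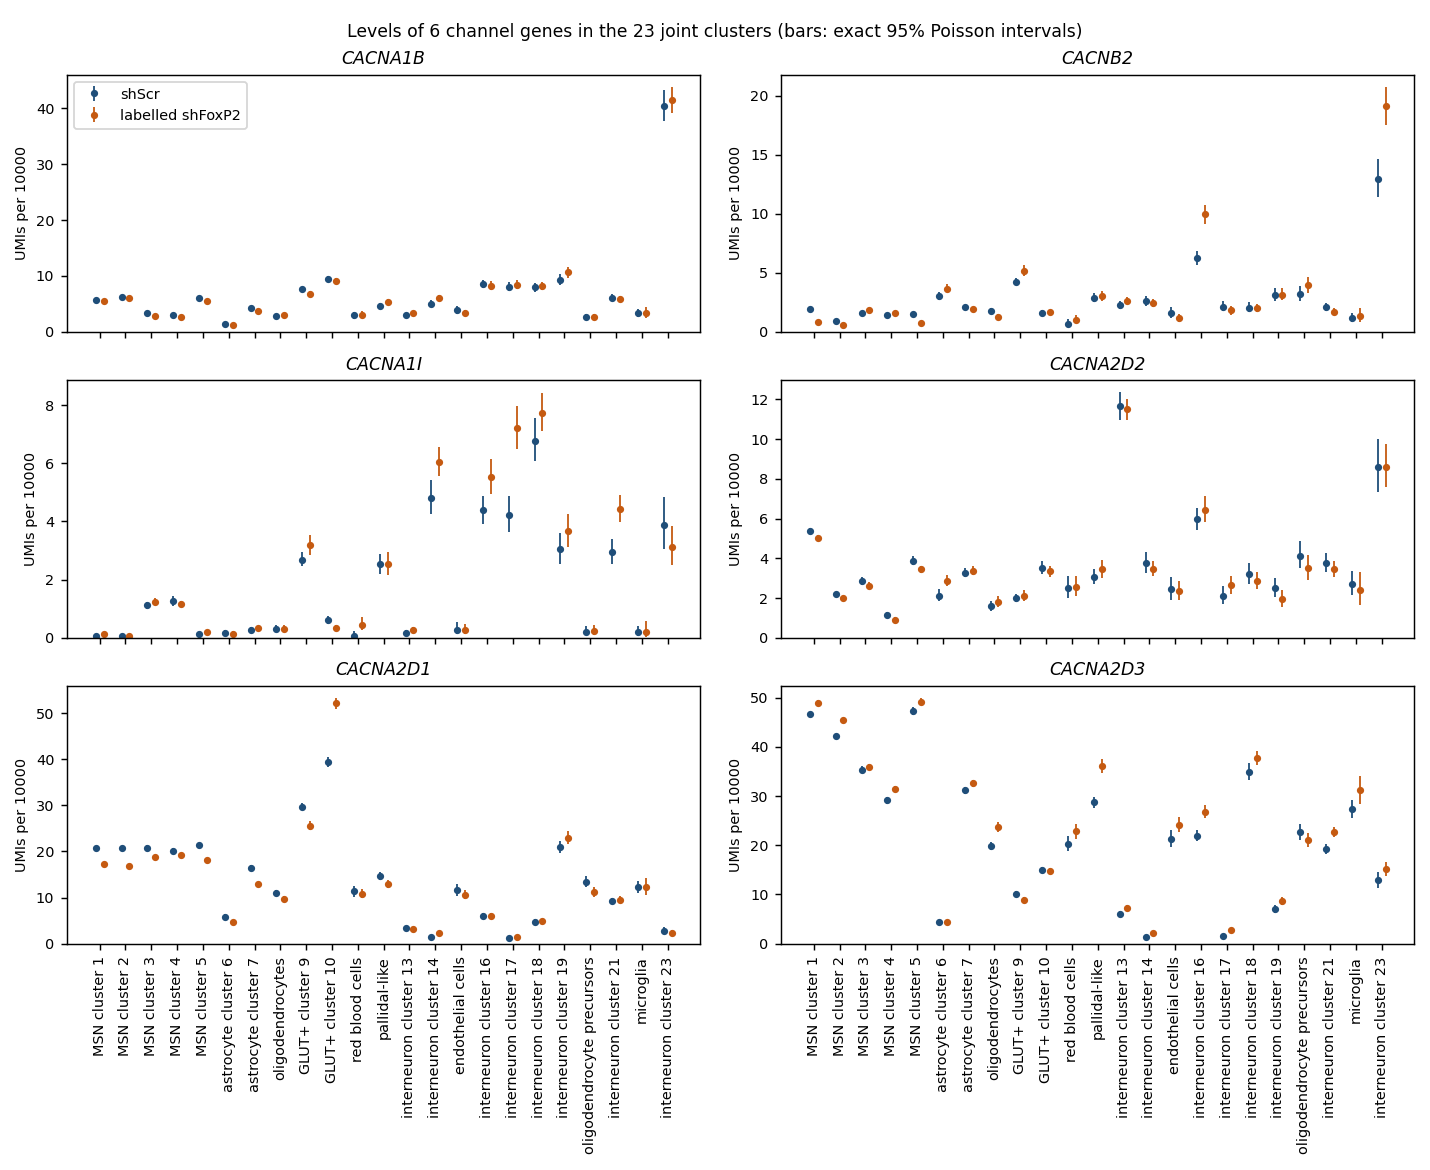
UMIs per 10000 of 6 members (panels) in each of the 23 joint clusters, with points for shScr (blue) and the library labelled shFoxP2 (orange) and bars for exact 95% Poisson intervals. CACNA1B reaches 40.4 and 41.5 in interneuron cluster 23 and CACNA2D1 reaches 39.5 and 52.1 in GLUT+ cluster 10, while CACNA1I is near 0 in MSN clusters 1 and 2.

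The T-type pores, which open near rest and support rebound bursts, differed among MSN clusters. CACNA1G stood at 0.421 in MSN cluster 1 of shScr, 0.901 in cluster 2 and 0.890 in cluster 5, but at 2.41 in cluster 3 and 4.48 in cluster 4. MSN cluster 4 was thus in the range of GLUT+ cluster 9 (4.22), GLUT+ cluster 10 (4.62), the pallidal-like cluster (4.42) and interneuron cluster 17, which was highest at 5.18. In the library labelled shFoxP2 clusters 3 and 4 were again above the others, with 1.26, 1.92 and 2.00 in clusters 1, 2 and 5 and 2.42 and 3.38 in clusters 3 and 4. Interneuron cluster 17 was again highest there, at 4.62.

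CACNA1I, the slowly inactivating T-type pore known from thalamic reticular neurons of mammals, was highest in interneurons. It stood at 6.78 (6.06 to 7.56) and 7.75 (7.10 to 8.43) in interneuron cluster 18 and at 0.0643 and 0.113 in MSN cluster 1. Of the MSNs, clusters 3 and 4 carried it at 1.11 and 1.26 in shScr and 1.25 and 1.15 in the library labelled shFoxP2, whereas clusters 1, 2 and 5 held at most 0.117 and 0.197. Interneuron clusters 14, 16, 17, 19, 21 and 23 ranged from 2.95 to 4.82 and from 3.12 to 7.20. GLUT+ cluster 9 (2.69 and 3.18) and the pallidal-like cluster (2.53 and 2.53) also carried it. Interneuron cluster 13 was the exception among interneurons, at 0.165 and 0.268, beside 0.0608 and 0.444 in the red blood cells. CACNA1I made up 6.2% and 3.58% of T-type UMIs in MSN cluster 2, 29.9% and 32.1% in MSN cluster 3, and 70.8% and 80.2% in interneuron cluster 23. CACNA1H, the third T-type pore, was highest in interneuron cluster 14 of shScr (2.10) and in endothelial cells of the library labelled shFoxP2 (1.42), with interneuron cluster 14 next there at 1.41.

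**Figure D3:**
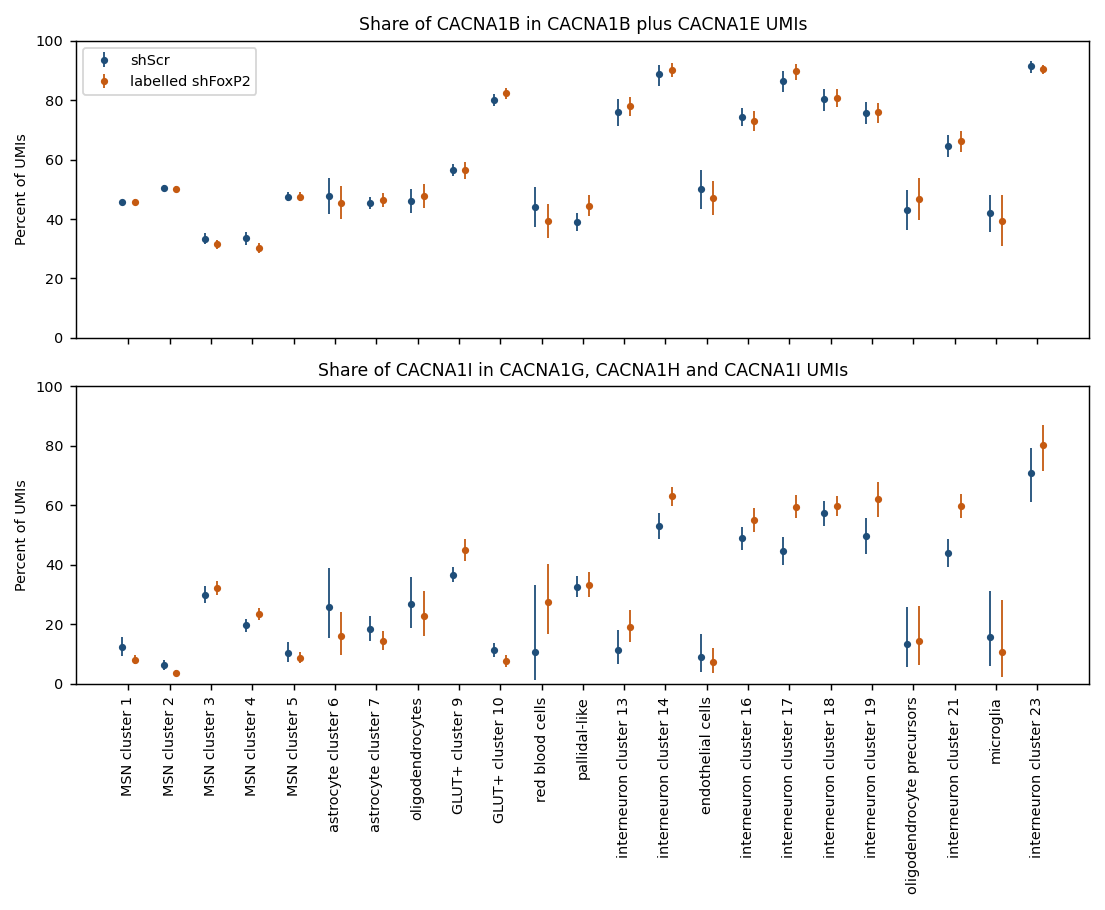
Share of UMIs in each joint cluster for CACNA1B within the N-type and R-type pores (top) and CACNA1I within the T-type pores (bottom), in percent, with exact 95% binomial intervals (blue, shScr, and orange, labelled shFoxP2). CACNA1B makes up 45.6% and 45.7% in MSN cluster 1 and 91.4% and 90.5% in interneuron cluster 23, and CACNA1I makes up 6.2% and 3.58% in MSN cluster 2.

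Alpha2delta subunits carry pores to the membrane, and 3 of the 4 genes were well counted. CACNA2D1, the gabapentin-binding subunit, was highest in GLUT+ cluster 10 at 39.5 (38.4 to 40.6) and 52.1 (51.0 to 53.2), and stood at 20.2 to 21.3 and 16.9 to 19.2 in the MSN clusters. Interneuron clusters 17 (1.27 and 1.53) and 14 (1.52 and 2.34) were far below, and below red blood cells (11.3 and 10.8). Interneuron cluster 19 differed from the other interneurons with 20.9 and 23.

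CACNA2D3, another alpha2delta gene, was highest in MSN cluster 5 and stood at 29.1 to 47.2 and 31.3 to 49.1 across MSN clusters. It fell to 1.42 and 2.16 in interneuron cluster 14 and to 1.58 and 2.71 in interneuron cluster 17. Interneuron cluster 18 held 34.9 and 37.6, so the interneuron clusters spanned more than the MSN clusters did. CACNA2D2 had its highest level in interneuron cluster 13 (11.7 and 11.5), with interneuron cluster 23 next (8.62 and 8.61), and its lowest in the direct-like MSN cluster 4 (1.13 and 0.917). CACNA2D4 was sparse, with 289 and 285 UMIs. It was highest in oligodendrocytes of shScr (0.413) and in interneuron cluster 23 of the library labelled shFoxP2 (0.490), from 41 and 14 UMIs.

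Beta subunits bind the pore inside the cell and set its gating. CACNB4, the best-counted beta gene, was highest in MSN clusters 2 (8.38 in shScr) and 5 (7.87 in the library labelled shFoxP2) and lowest in astrocyte cluster 6 (1.30 and 1.60). CACNB2, whose product slows inactivation of high-voltage channels, was highest in interneuron cluster 23, at 13 (11.4 to 14.7) and 19.1 (17.5 to 20.8). Interneuron cluster 16 was next at 6.26 and 9.96, so cluster 23 stood at 2.07 and 1.92 times the next and just missed the peak rule in the second library. CACNB2 made up 75.4% and 80.6% of beta subunit UMIs in cluster 23, 65.7% and 66.9% in astrocyte cluster 6, and 9.34% and 6.19% in MSN cluster 2. CACNB3 was highest in interneuron cluster 17 (0.603 and 0.379). CACNB1, the beta subunit of skeletal muscle, had its highest level in MSN cluster 3 of shScr (0.247, from 67 UMIs). In the library labelled shFoxP2 it was highest in the red blood cells (0.340), from 13 UMIs.

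The gamma genes kept here encode auxiliary subunits of AMPA receptors as much as of calcium channels. CACNG2, whose product stargazin carries AMPA receptors to synapses, was highest in interneuron cluster 14 at 3.97 and 4.17, and lay between 0.881 and 1.47 and between 1.05 and 1.42 in MSN clusters. CACNG4 was highest in the oligodendrocyte precursors at 1.83 (1.41 to 2.33) and 2.02 (1.58 to 2.53), at 1.75 and 1.86 times the next cluster. In MSN clusters 1 and 2 it stood at 0.0575 and 0.0692 in shScr, and in clusters 3 and 4 at 0.413 and 0.473. CACNG5 was highest in MSN cluster 2 (0.423 and 0.361). CACNG3 showed its highest level in the red blood cells of shScr (1.58), just above GLUT+ cluster 9 (1.5), which was highest in the library labelled shFoxP2 (1.19).

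HCN4, the slow cardiac pacemaker isoform, was highest in interneuron cluster 13 (0.889 and 0.699), close to MSN clusters 1, 2 and 5 of shScr (0.858, 0.867 and 0.865). It was at 0.0347 and 0.0201 in interneuron cluster 14, from 2 and 2 UMIs. HCN3 had 375 UMIs and was highest in red blood cells (0.152 and 0.105), but from 5 and 4 UMIs, too few to place it.

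The 6 members under 200 UMIs were CACNG1 (7 and 5 UMIs), SCN4A (8 and 8), HCN2 (22 and 48), CACNA1S (27 and 26), CACNG7 (71 and 73) and SCN4B (77 and 93). CACNG1, SCN4A and CACNA1S are known as skeletal muscle channel genes. None of these was given a ratio.

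Neurons were then compared with non-neuronal cells, the question being which channel genes separate them. All 25 members could be compared, and 1 was at least 2 times higher in neurons in both libraries, against 1.22% of all genes. This was CACNA1I, with 0.902 against 0.249 in shScr (log2 1.86, 1.60 to 2.12) and 1.13 against 0.266 in the library labelled shFoxP2 (log2 2.08, 1.84 to 2.33). The ratio did not hold for all neurons. MSN clusters 1, 2 and 5 lay below that non-neuronal level, at 0.0643, 0.0669 and 0.117 in shScr. In the library labelled shFoxP2 they held 0.113, 0.0736 and 0.197. The other neuron clusters lay above it, except interneuron cluster 13 of shScr (0.165). No member was at most 1/2 of the non-neuronal level in both libraries, a size seen in 10.2% of all genes. CACNA2D4 was below 1/2 in shScr alone, at 0.0643 against 0.137 (log2 -1.10, -1.49 to -0.69), and stood at 0.0667 against 0.0707 in the other library. The median log2 ratio of the members was 0.53 and 0.59, and that of all genes -0.16 and -0.21. Without astrocyte cluster 7, which carries MSN markers, 8 of 25 members were past 2 times, against 2.59% of all genes, a comparison added after the data were seen. They included CACNA1B, CACNA1C, CACNA1G, CACNA1I, CACNA2D1, CACNA2D3 and HCN4, and the member median rose to 0.73 and 0.68. FOXP2, 1 of the MSN markers, was not particular to cluster 7, where it stood at 3.99 in shScr. It was higher in oligodendrocytes (6.08), their precursors (5.56) and endothelial cells (4.67), which were kept. It was lower in microglia (3.02) and astrocyte cluster 6 (1.27). MSN cluster 1 itself held 0.441, so FOXP2 alone does not show how much MSN RNA a cluster holds. The other MSN markers are not given for these clusters. With cluster 7 kept but without the 8% deepest nuclei, 8 members were also past 2 times, with CACNG2 in place of CACNA2D1. The share of all genes was not computed for that setting. With cluster 7 kept, CACNB2 was lower in neurons, at -0.19 (-0.28 to -0.09) and -0.48 (-0.57 to -0.39). CACNG4 stood at -0.26 (-0.51 to 0.01) and -0.39 (-0.64 to -0.14), so its interval included 0 in shScr.

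The next comparison set the direct-like MSN clusters 2 and 4 against the indirect-like clusters 1 and 3. In both libraries EBF1, CHRM4 and PDYN were highest in direct-like clusters, and DRD2 and ADORA2A in indirect-like ones. Other markers listed for the pathways were not: ISL1, PENK and PTPRM were highest in interneuron clusters. TAC1 was highest in red blood cells of shScr, and FOXP2 and GPR6 in interneuron cluster 16 of the library labelled shFoxP2. MSN cluster 5, with FOXP2 at 4.57 and 5.56, between both kinds, was left out as mixed. Of the 23 members with enough UMIs, 1 was at least 2 times apart in both libraries, against 1.37% of all genes. This was CACNA2D2, at 2.01 in direct-like and 4.77 in indirect-like MSNs of shScr (log2 -1.25, -1.32 to -1.17) and at 1.70 and 4.27 in the library labelled shFoxP2 (log2 -1.32, -1.40 to -1.25). Within each library both direct-like clusters (2.22 and 1.13, then 2.03 and 0.917) lay below both indirect-like clusters (5.37 and 2.84, then 5.01 and 2.62). Toward the indirect-like side 0.727% of all genes were past 2 times, and toward the direct-like side 0.646% of all genes and no member.

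CACNA1H (log2 1.51 and 0.75), CACNG5 (0.58 and 1.23), CACNA1G (0.84 and 0.53) and CACNA1D (0.44 and 0.52) were higher in direct-like MSNs, but none was past 2 times in both libraries. CACNB2 (-0.89 and -0.41) and CACNG2 (-0.45 and -0.34) were lower. The clusters of a pathway did not all follow these ratios. CACNA1G was higher in indirect-like cluster 3 (2.41 and 2.42) than in direct-like cluster 2 (0.901 and 1.92). So was CACNA1H (0.196 and 0.210 against 0.111 and 0.0687). CACNB2 stood higher in direct-like cluster 4 (1.59) than in indirect-like cluster 1 (0.808) of the library labelled shFoxP2. The order was reversed in shScr (1.43 and 1.96). The direction was the same in both libraries for 21 of the 23 members. SCN2A (0.04 and 0.08), CACNB4 (0.01 and -0.01) and CACNA2D1 (-0.01 and -0.01) were nearly even, and the members' median was -0.01 in each library.

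**Figure D4:**
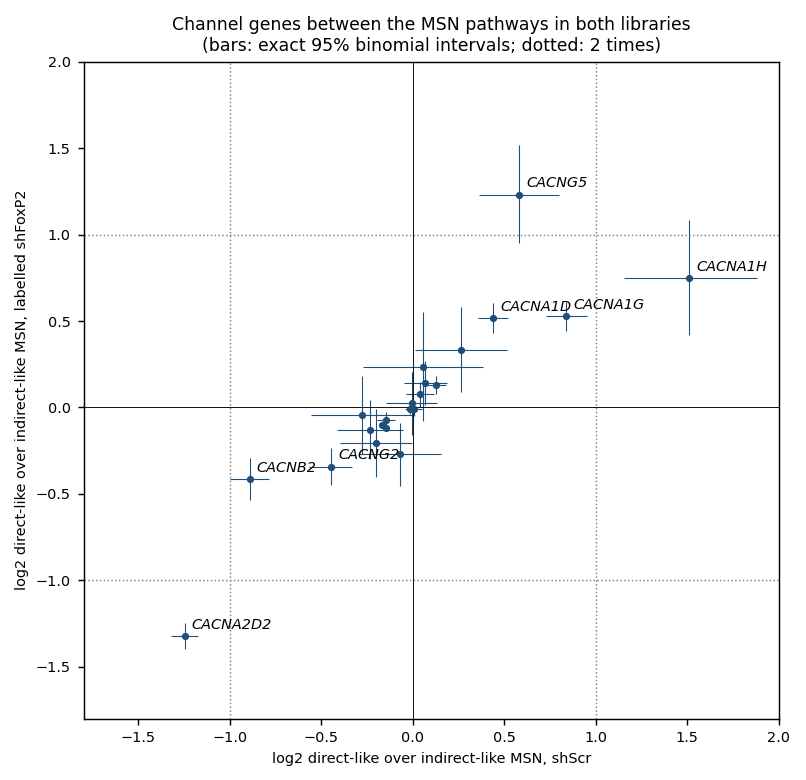
Log2 ratio of direct-like over indirect-like MSNs for 22 members with enough UMIs, in shScr (x axis) and the library labelled shFoxP2 (y axis), with exact 95% binomial intervals and dotted lines at 2 times. CACNA2D2 lies at -1.25 and -1.32 past 2 times in both libraries, while the other members plotted lie inside 2 times in at least 1 library.

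The comparison of the libraries asked whether channel genes differed between the birds given the FoxP2 hairpin and those given the scrambled hairpin. A gene was called where its level was at least 1.5 times apart. In all MSNs 5 of 24 members (20.8%) were called, against 13.6% of all genes, with 1 higher (6.86% of all genes) and 4 lower (6.75%) in the library labelled shFoxP2. In direct-like MSNs 1 of 23 (4.35%) was called, against 11.7%, and in indirect-like MSNs 4 of 23 (17.4%), against 12.2%. The members were thus called at shares on either side of the background. The median log2 ratio of the members in all MSNs was -0.11, and that of all genes 0.01.

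HCN4 had the lowest ratio of the members in all MSNs, at 0.786 and 0.437 (log2 -0.85, -0.95 to -0.74). It was lower in each MSN cluster with enough UMIs, from 0.858 to 0.487 in cluster 1, from 0.867 to 0.493 in cluster 2, from 0.513 to 0.257 in cluster 3 and from 0.865 to 0.555 in cluster 5. In astrocytes it stood at 0.412 and 0.204 (log2 -1.01), but nearly all of those UMIs lay in astrocyte cluster 7, which carries MSN markers (0.556 and 0.306), and astrocyte cluster 6 held 6 and 3 UMIs. The red blood cells held 12 and 10 HCN4 UMIs, or 0.365 and 0.261.

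HCN3, with 133 and 87 UMIs in MSNs, a sparse HCN gene, was lower too (0.0527 and 0.0316, log2 -0.74, -1.15 to -0.34). With equal cluster weights it was -0.51. Without the mixed cluster 5 it had 199 UMIs, under the minimum, at a log2 ratio of -0.81.

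CACNA1G was the single member called higher in all MSNs, at 1.19 and 1.98 (log2 0.74, 0.67 to 0.80). The difference was uneven among the MSN clusters. It was 0.421 and 1.26 in cluster 1 (log2 1.59, 1.41 to 1.76), 0.901 and 1.92 in cluster 2 (1.09, 0.96 to 1.22) and 0.890 and 2.00 in cluster 5 (1.17, 0.97 to 1.37). It was even in cluster 3, at 2.41 and 2.42 (log2 0.01, -0.14 to 0.16), and lower in cluster 4, at 4.48 and 3.38 (-0.41, -0.53 to -0.28). Clusters 3 and 4 held 8.96% and 8.06% of the MSN nuclei of shScr and 12.5% and 12.9% of those of the library labelled shFoxP2. With equal weight for each cluster, which raises the weight of clusters 3 and 4, the log2 ratio was 0.27. Levels also differed in astrocyte cluster 7 (1.06 and 1.85) and in red blood cells (0.426 and 1.15, from 14 and 44 UMIs). The part of free RNA in the MSN difference was not tested.

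CACNB2 split the MSN clusters in the same way but with the opposite sign. It fell from 1.96 to 0.808 in cluster 1 (log2 -1.28, -1.41 to -1.15), from 0.911 to 0.552 in cluster 2 (-0.72, -0.89 to -0.55) and from 1.49 to 0.744 in cluster 5 (-1.0, -1.22 to -0.79). Cluster 3 stood at 1.60 and 1.86 (log2 0.22) and cluster 4 at 1.43 and 1.59 (0.15). In all MSNs the level was 1.47 and 0.965 (log2 -0.60, -0.67 to -0.53), and with equal cluster weights the ratio was -0.41, inside 1.5 times. It was also inside 1.5 times without the deepest 8% of nuclei and without the mixed cluster 5, at -0.58 and -0.55. With cluster levels weighted by the shScr shares of MSN UMIs, added after the data were seen, it was -0.72 and CACNA1G was 0.66, both past 1.5 times. In interneuron cluster 16 CACNB2 was higher in the library labelled shFoxP2, at 6.26 and 9.96 (log2 0.67, 0.49 to 0.85), and in interneuron cluster 23 at 13 and 19.1 (0.56, 0.34 to 0.78). The red blood cells held 0.700 and 1.02.

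CACNG5 stood at 0.324 and 0.209 in all MSNs (log2 -0.63, -0.79 to -0.48), at 0.263 and 0.123 in indirect-like MSNs (-1.09, -1.38 to -0.80) and at 0.393 and 0.290 in direct-like MSNs (-0.44). By the shScr cluster weights it was -0.56, inside 1.5 times. CACNA1I, at 0.281 and 0.397, had the second largest ratio upward in all MSNs (log2 0.50, 0.36 to 0.64), and lay just inside the rule in indirect-like MSNs (0.58). In indirect-like MSNs it was past 1.5 times by the mean over nuclei and without the 8% deepest nuclei. By the mean over nuclei it was 0.64 in all MSNs, past 1.5 times, and by the shScr cluster weights 0.17. CACNA1D was at 2.24 and 1.79 (log2 -0.32, -0.38 to -0.27) and below 0 in 15 of 17 joint clusters with enough UMIs. Outside the T-type and HCN genes, the best-counted gene of each role moved little in all MSNs. Log2 ratios were -0.13 for CACNA1C, -0.13 for CACNA1B, -0.03 for SCN2A, 0.05 for CACNA2D3, -0.10 for CACNB4, 0.12 for CACNG2 and 0.02 for SCN2B. CACNA2D1, with 73951 and 70227 UMIs in all nuclei, stood at 20.7 and 17.7 in MSNs. It was lower in 15 of 21 joint clusters with enough UMIs. Of the 24 members, 14 lay within 0.25 of 0.

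**Figure D5:**
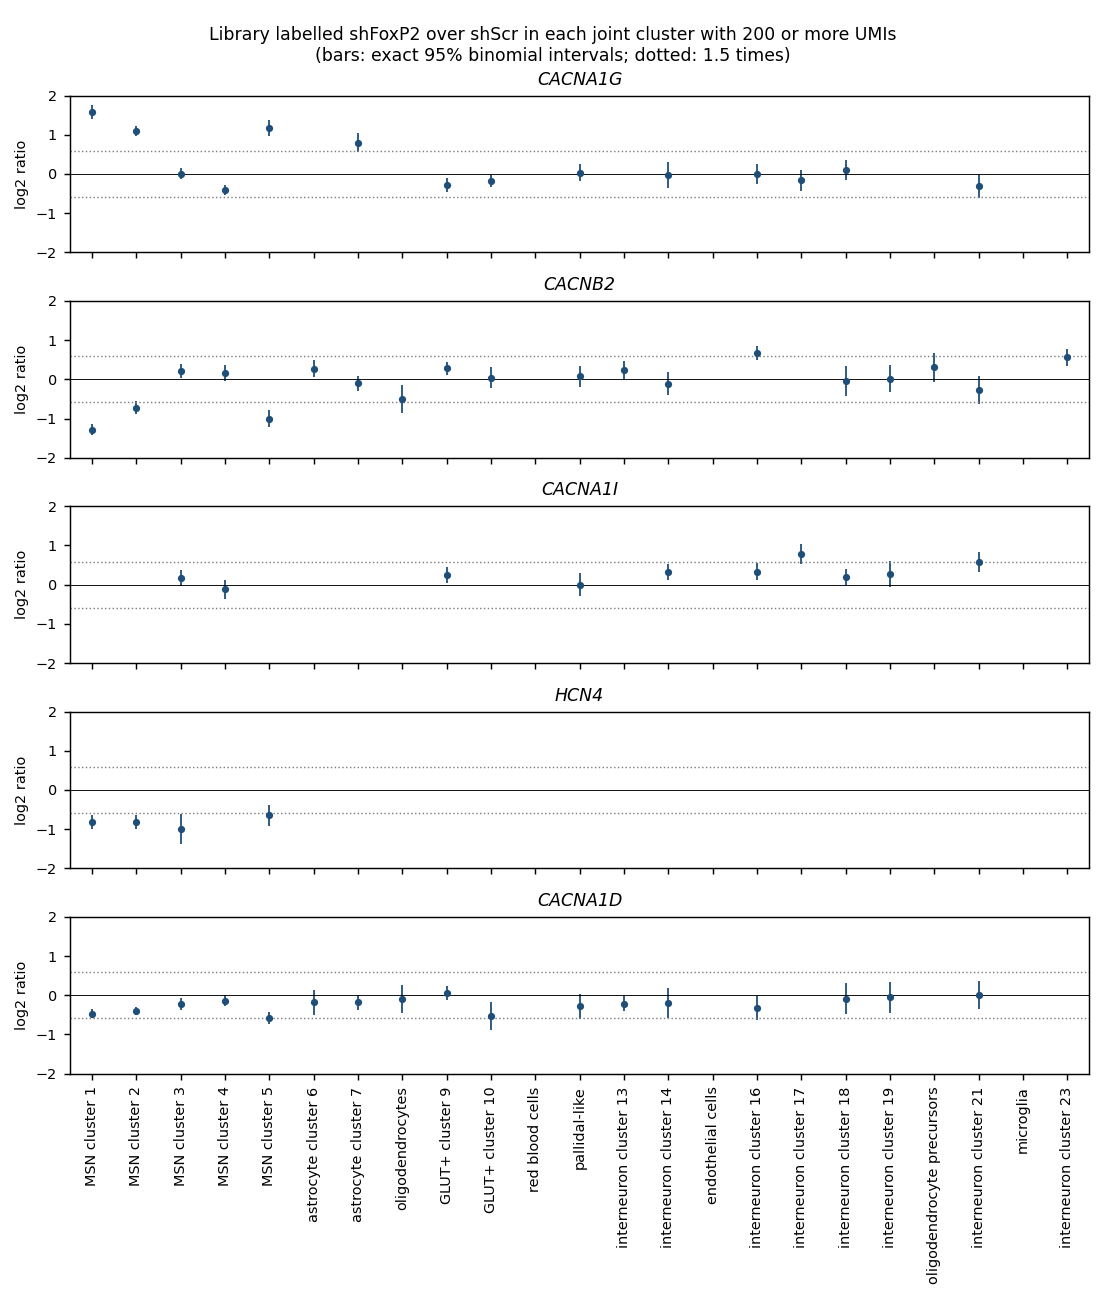
Log2 ratio of the library labelled shFoxP2 over shScr for 5 members (panels) in each joint cluster with 200 or more UMIs, with exact 95% binomial intervals and dotted lines at 1.5 times. CACNA1G is at 1.59, 1.09 and 1.17 in MSN clusters 1, 2 and 5 and at 0.01 and -0.41 in clusters 3 and 4, and CACNB2 is at -1.28, -0.72 and -1.0 in the former.

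Taken cluster by cluster, the MSN clusters 1, 2 and 5 held more called members than clusters 3 and 4. The share of all genes called was lower in clusters 3 and 4 too. In cluster 1 it was 4 of 20 (11.9% of all genes called), in cluster 2 it was 3 of 20 (12.1%) and in cluster 5 it was 4 of 16 (11.5%). In cluster 3 HCN4 was called of 19 (8.43%), and in cluster 4 CACNA1H (log2 -0.70) of 19 (7.42%).

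In the cell groups outside the MSNs at most 2 members were called. Fewer members were tested there than in all MSNs, and smaller shares of all genes were called (13.6% in all MSNs). None was called in pallidal-like cells (14 tested, 3.53% of all genes called), GLUT+ cells (18, 7.31%), interneurons together (21, 6.8%) or oligodendrocytes (11, 6.37%). In astrocytes 2 of 17 (11.8%) were called, against 7.17% of all genes: CACNA1G, at 0.871 and 1.37, and HCN4. Most UMIs of both lay in astrocyte cluster 7, with 235 and 411 for CACNA1G and 123 and 68 for HCN4. In astrocyte cluster 6 none of 10 members was called (6.87% of all genes), and CACNA1G stood there at 0.413 and 0.517. HCN4 was under the UMI minimum in each of these clusters taken alone. The part of MSN RNA in these differences was not tested. CACNA2D1 in GLUT+ cluster 10 was 39.5 and 52.1 (log2 0.40), inside the rule. In single clusters, CACNA1G was the called member of 14 in astrocyte cluster 7 (6.93% of all genes), CACNB2 of 14 in interneuron cluster 16 (6.4%) and CACNG2 (log2 -0.70) of 13 in interneuron cluster 19 (6.3%). Interneuron cluster 14 had 2 of 13 called (8.39%), CACNA2D1 (0.62) and CACNA2D3 (0.61), and interneuron cluster 17 had 2 of 10 (8.74%), CACNA1I (0.77) and CACNA2D3 (0.77). Both alpha2delta genes were at low levels in these clusters, below the red blood cells of the same library.

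A list of 38 partner gene symbols was examined: anchoring proteins, intracellular regulators, release-site scaffolds and the NALCN leak channel with its subunits. It also held genes outside those kinds, such as the channels TPCN1 and TPCN2, and KCNAB1, KCNIP1 and MINAR1. FAM155A and FAM155B were listed under their other symbols, NALF1 and NALF2, as well. Of the 38 symbols, 31 had a column and 26 had 200 or more UMIs. Of these 26, 3 (11.5%) were peaked, against 5.91% of all genes. FAM155A, a subunit of the NALCN channel, stood at 242 and 240 in interneuron cluster 23, at 5.33 and 5.26 times the next cluster. UNC79, another NALCN partner, was highest in the same cluster at 3.25 and 3.85. STAC, a regulator of L-type channels, was highest in astrocyte cluster 6 at 1.61 and 1.78. FAM155A was also the single partner of 22 past 2 times between the pathways (1.37% of all genes), at 12.3 and 31.8 in direct-like and indirect-like MSNs of shScr and 15.5 and 32.1 in the library labelled shFoxP2.

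Between the libraries none of the 26 partners was called in all MSNs, against 13.6% of all genes, and none of 22 in direct-like (11.7%) or in indirect-like MSNs (12.2%). NALCN itself had a log2 ratio of 0.51, SPTBN4, a spectrin of the axon initial segment, 0.40 and UNC79 0.36. In astrocytes 3 of 23 were called (7.17% of all genes): MINAR1 at 0.140 and 0.50 (log2 1.83), the node protein gene NFASC at 2.85 and 1.90 (-0.59) and UNC80 at 2.55 and 1.67 (-0.61). In oligodendrocytes 1 of 17 was called (6.37%), the release-site scaffold gene RIMBP2, at 4.34 and 6.55 (log2 0.60).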

How the data were processed

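Nuclei of Area X were counted by the authors with CellRanger 3.0.2 against exons and introns of the zebra finch genome (bTaeGut1_v1.p), and clustered with Seurat 3.0 (joint clusters of both libraries). Nuclei of the joint table were assigned to shScr where barcodes and counts equal those of the deposited shScr table. The deposited tables hold whole-number UMI counts per gene and nucleus before normalization; nuclei over 10000 UMIs or 5% mitochondrial UMIs had been removed by the authors. No doublet caller was run here, and an alternative leaves out the deepest 8% of nuclei.

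UMIs were summed over the nuclei of a joint cluster or cell group and library and expressed per 10000 with pandas 2.3.3 and numpy 2.4.6 under Python 3.11.15; intervals came from scipy 1.17.1 and figures from matplotlib 3.10.9. Genes needed 200 UMIs over the groups compared, and peaks 20 UMIs in the highest cluster. Calls were by size: 2 times in both libraries between cell groups, and 1.5 times between libraries. Intervals are exact at the 95% level. MSN clusters were called direct-like or indirect-like from the shScr library's own clusters, which held 91.3% to 98.7% of the shScr nuclei of each joint cluster. Joint cluster 5 matches an own cluster that the methods here set apart as mixed. The study grouped that own cluster with the indirect-like ones, which was run as an alternative. The members and gene lists were chosen with earlier results of these data known. Named in full were members peaked, called between pathways or called between libraries, the 3 largest ratios in each direction in all MSNs and the best-counted member of each role. The labels give birds of 160 to 185 days post hatch, and the methods of the study give another age range. Alternatives were depth filters, thinning to 1000 UMIs, nucleus means, centring, UMI minimums of 50 and 1000, equal or fixed cluster weights, and other cluster groupings. The results of 1 member are not reported here.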

Additional observations from a re-analysis of the deposited data

Results flagged for a closer look

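CACNB2 was the single member at least 1.5 times apart between the libraries in opposite directions in different joint clusters. Its log2 ratio was -1.28 in MSN cluster 1, -0.72 in MSN cluster 2 and -1.0 in MSN cluster 5, and 0.67 in interneuron cluster 16. With 1 library per condition the difference between the clusters was not tested. The red blood cells held 23 and 39 CACNB2 UMIs (log2 0.54, interval -0.24 to 1.35). The part of RNA from other cells in the result was not tested.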

How the results depend on the processing

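No paired analysis was possible because each condition has 1 library, and leaving out a replicate was not possible for the same reason. The FOXP2 ratio was rerun in 1 alternative alone, nuclei with at least 1000 UMIs, and kept its direction. The peak of CACNA1B and the pathway call of CACNA2D2 kept direction and call in every alternative run for them. In all MSNs 5 members were called between libraries, but 3 without the 8% deepest nuclei (1143 and 1036), 3 when thinned to 1000 UMIs (626 and 531 shallower nuclei left out), 3 without the mixed cluster (HCN4, CACNG5 and CACNA1G each time) and 2 (HCN4 and CACNG5) with equal weight for each MSN cluster, when CACNA1G had 0.27. It was 6 by nucleus means (CACNA1I joining), 6 at a minimum of 50 UMIs (SCN4B joining), 4 at a minimum of 1000, and 4 with the shScr cluster shares, added after seeing the data (CACNG5 lost). HCN4 was called in all MSNs, direct-like and indirect-like MSNs under every setting run. In direct-like MSNs 2 members were called when thinned and 2 by nucleus means, CACNA1G joining HCN4. Between pathways 2 were called when thinned and 2 with the shScr library's own clusters, CACNA1H joining; the latter uses 1 library. With own clusters, and with the next cluster at most 2/3, 3 members were peaked, CACNB2 and CACNG4 joining. In neurons 8 members were called without the 8% deepest nuclei and 8 without astrocyte cluster 7, an alternative chosen after seeing the data. Among the alternatives, the share of all genes was computed only without astrocyte cluster 7 (2.59%), so the other counts have no background. Of partners, 1 was peaked without the deepest nuclei and 6 at the looser rule, 2 were called between pathways with the mixed cluster among the indirect-like, and between libraries 1 in direct-like MSNs when thinned and 1 in direct-like and in all MSNs at a minimum of 50 UMIs. In single clusters, added after seeing the data, signs turned for CACNB2 (0.22 in cluster 3, 0.15 in cluster 4), CACNA1G (-0.41 in cluster 4) and CACNA1I (-0.12 in cluster 4). The causes were not tested. Depth limits members under 200 UMIs and most ratios in clusters of few nuclei.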
